A study of Rattus norvegicus with 6 samples.

Results

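The lysyl oxidase family was examined in fibroblasts cultured from rat dermis, the cells that build the collagen matrix of skin. Its members are Lox, Loxl1, Loxl2, Loxl3 and Loxl4, and they were located as the gene probes of the array whose RefSeq accession belongs to 1 of these 5 symbols. Of the 5 genes 4 had a probe, among 15168 genes named on the array. The rule found 5 probes among 30367 gene probes: 1 each for Loxl1, Loxl2 and Loxl3, and 2 for Loxl4. No probe was assigned to Lox, which is not analysed here. All 5 probes were well above background on all 6 arrays, so all entered the test among 20776 probes that passed the filter on dim probes (well above background on every array of at least 1 group).

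Both groups had received lentivirus (multiplicity of infection 10) and were sampled at 48 h, with 2 µg/mL of puromycin in the medium of both, so exposure to virus and drug was common to them. The knockdown group (n = 3) carried an shRNA lentivirus aimed at lnc-URIDS, a long non-coding RNA, and the control group (n = 3) a control lentivirus. Every sample had an Agilent array of its own, read in 1 colour. The labels name neither the age and strain of the rats nor separate cultures for the 3 samples of a group, so the p-values here cover only how these samples spread, and that spread may be technical. The level of lnc-URIDS was not analysed here.

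Lysyl oxidases are secreted, copper-dependent amine oxidases that turn lysine and hydroxylysine side chains of collagen and elastin into reactive aldehydes, which then condense into the crosslinks that hold fibres together. Their catalytic domain carries a quinone cofactor made from the enzyme's own lysine and tyrosine residues. Lox and Loxl1 are made with a propeptide and are matured by BMP1-type proteinases. Loxl2, Loxl3 and Loxl4 carry scavenger receptor cysteine-rich domains in its place. Loxl1 is known for elastic fibre renewal, and Loxl2 for the crosslinking of collagen IV in basement membranes.

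RefSeq promoters were held for Loxl1, Loxl3 and Loxl4, and are shown as a description of their letters. The letters run 5′ to 3′ in the direction of transcription and end just before the annotated gene (build GRCr8; Loxl1 chr8:67612225-67612474, minus strand; Loxl3 chr4:117098108-117098357, plus strand; Loxl4 chr1:251365641-251365827, minus strand). Capitals mark motif matches on either strand. The first motif searched was TATAAA, the TATA box. The second was GGGCGG, known as a GC box. Cores of the hypoxia response element were searched as ACGTG and, in a variant form, as GCGTG. The SMAD box was searched as CAGAC, and the E-box, which is bound by basic helix-loop-helix factors, as CANNTG.
Loxl1: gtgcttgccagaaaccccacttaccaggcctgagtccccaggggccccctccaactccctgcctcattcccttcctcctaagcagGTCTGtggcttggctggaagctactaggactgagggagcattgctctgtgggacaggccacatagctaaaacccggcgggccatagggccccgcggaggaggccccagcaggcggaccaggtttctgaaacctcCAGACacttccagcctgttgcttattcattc
Loxl3: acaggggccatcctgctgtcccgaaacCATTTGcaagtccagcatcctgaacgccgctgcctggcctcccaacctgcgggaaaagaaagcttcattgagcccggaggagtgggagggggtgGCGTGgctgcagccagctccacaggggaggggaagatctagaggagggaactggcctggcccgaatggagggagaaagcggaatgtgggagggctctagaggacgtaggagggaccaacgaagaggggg
Loxl4: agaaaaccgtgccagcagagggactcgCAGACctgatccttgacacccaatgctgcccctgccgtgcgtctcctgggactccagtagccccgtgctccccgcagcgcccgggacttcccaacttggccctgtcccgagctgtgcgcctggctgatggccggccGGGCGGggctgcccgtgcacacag
The Loxl1 window of 250 bases held 2 CAGAC matches, and CAGAC occurs in 42.9% of all 33469 RefSeq promoter windows of that length. The Loxl3 window of 250 bases held 1 GCGTG match (in 25.9% of all windows of that length) and 1 CANNTG match (65.5%). The Loxl4 window of 187 bases held 1 GGGCGG match (22.1% of all windows cut to their first 187 bases) and 1 CAGAC match (34.9%). No motif of this search was found in both Loxl3 and Loxl4, whose windows differ in length (250 and 187 bases). These matches describe letters and were not tested as sites, nor for any link to the levels on the arrays.

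The family showed no difference between knockdown and control that passed the test. With limma across all tested probes and Benjamini-Hochberg adjustment, 0 of 5 probes passed at an adjusted p under 0.05, as did 0 of all probes (0%), and the smallest adjusted p of the whole table was 0.0867. At an unadjusted p under 0.05, 0 of the 5 family probes were counted, against 14.5% of all tested probes (1197 with higher and 1811 with lower means in knockdown). Loxl2 lay close to that threshold and came under it in 7 of its 20 alternatives, so the count was then 1 of 5: after quantile normalization, alone or with normexp, centring on the median, an intensity trend in the variance or array weights, and without control 1 or knockdown 1. Over all 20776 tested probes, 1523 with higher and 1592 with lower means were then under it after quantile normalization, and 1425 and 1593 with normexp added. These counts were 1636 and 1335 with median centring, 1337 and 1866 with the intensity trend, and 4351 and 7258 with array weights. They were 1598 and 2098 without control 1, and 1270 and 2254 without knockdown 1. In the main setting, 39.8% of all tested probes under that threshold had the higher mean in knockdown. The share was 55.1% when arrays were centred on their medians, 50.5% after normexp and 48.9% after quantile normalization. The family split into 3 probes with a higher and 2 with a lower knockdown mean. Its median log2 fold change was 0.04, and that of all tested probes -0.01. Throughout, a level is log2 of a probe's processed signal less that of the 75th percentile on its array, and a log2 fold change is knockdown minus control on that scale.

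Loxl2, read by probe A_44_P105225 (NM_001106047), had the smallest limma p of the family. Its levels were 4.02, 3.69 and 3.82 for controls 1, 2 and 3, against 3.98, 4.13 and 4.12 for knockdown 1, 2 and 3. Knockdown 2 and 3 lay above every control, while knockdown 1 lay just under control 1, so the groups overlapped. The means were 3.84 ± 0.17 in control and 4.08 ± 0.080 in knockdown (SD, n = 3 each), a log2 fold change of 0.23 ± 0.10 (SE; limma adjusted p = 0.350). The 95% interval ran from 0.998-fold to 1.38-fold around 1.18-fold. The sign was the same in all 20 alternatives, with values from 0.16 (without control 2) to 0.32 (without control 1). Array quality weights brought the adjusted limma p to 0.0073; these weights rested mostly on control 3 (4.65) and knockdown 3 (7.13), against 0.343 to 0.674 for the other arrays, and called 9234 probes in all.

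Loxl1, read by A_43_P19907 (NM_001012125), was the family's least variable probe. Its levels were 1.57, 1.54 and 1.51 in the controls and 1.49, 1.45 and 1.49 in the knockdown samples. All 3 knockdown values lay under all 3 controls, the only case among the 5 probes. Groups did not overlap in 22.2% of all tested probes (12.5% with knockdown lower, 9.66% with knockdown higher). The step was small: 1.54 ± 0.028 against 1.48 ± 0.023 (SD, n = 3 each), a log2 fold change of -0.06 ± 0.04 (SE; limma adjusted p = 0.570). The 95% interval of the main setting ran from 0.894-fold to 1.03-fold and covers only the spread of these samples. With a normexp background the log2 fold change was -0.095 ± 0.058 (SE), so these bounds depend on the setting. Only 3.89% of tested probes had a within-group SD as low as its 0.026.

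Loxl3, read by A_64_P029142 (NM_001107866), had levels of 1.27, 1.56 and 1.36 in the controls and 1.12, 1.56 and 1.41 in the knockdown samples. The groups overlapped, with control 2 and knockdown 2 level at the top and knockdown 1 lowest, so knockdown spread more widely than control. The means were 1.40 ± 0.15 and 1.36 ± 0.23 (SD, n = 3 each), a log2 fold change of -0.04 ± 0.14 (SE; limma adjusted p = 0.95) with an interval from 0.774-fold to 1.23-fold. The sign turned to 0.05 without control 2 and to 0.09 without knockdown 1.

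Loxl4 was measured by 2 probes of the same accession (NM_001107592). Probe A_42_P463602, printed 10 times on each array, had levels of -3.55, -2.99 and -3.24 in the controls and -3.55, -2.90 and -3.20 in the knockdown samples. Control 1 and knockdown 1 were equally low, and control 2 and knockdown 2 highest. The means were -3.26 ± 0.28 and -3.22 ± 0.33 (SD, n = 3 each), a log2 fold change of 0.04 ± 0.21 (SE; limma adjusted p = 0.962) with an interval from 0.718-fold to 1.48-fold. The sign turned to -0.10 without control 1 and to -0.12 without knockdown 2. Probe A_64_P029118, with 1 spot per array, had levels of -5.14, -4.66 and -5.12 in the controls and -5.06, -4.50 and -4.87 in the knockdown samples. It too was highest in control 2 and knockdown 2, with control 3 as low as control 1, and its log2 fold change was 0.16 ± 0.19 (SE; limma adjusted p = 0.793), between 0.0033 without knockdown 2 and 0.32 without control 2.

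The repeated spots give the error within an array for Loxl4. Within an array the 10 spots had SDs of 0.063 to 0.13 on the log2 scale, 1 outlier spot on control 2 being left out, which gives standard errors of 0.020 to 0.041 for an array's mean. Between arrays the Loxl4 level ranged over 0.66 log2 units, or 1.58-fold. Its within-group SD of 0.31 was above the median of 0.061 for the 1157 tested probes printed 10 times, at their 95.7th percentile. Those probes were not matched to it for signal. Its own signal was 127 to 204 units, against 75th percentiles of 1494 to 1612 units. Spot error leaves out labelling, hybridisation and culture, whose parts in that spread were not measured.

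**Figure D1:**
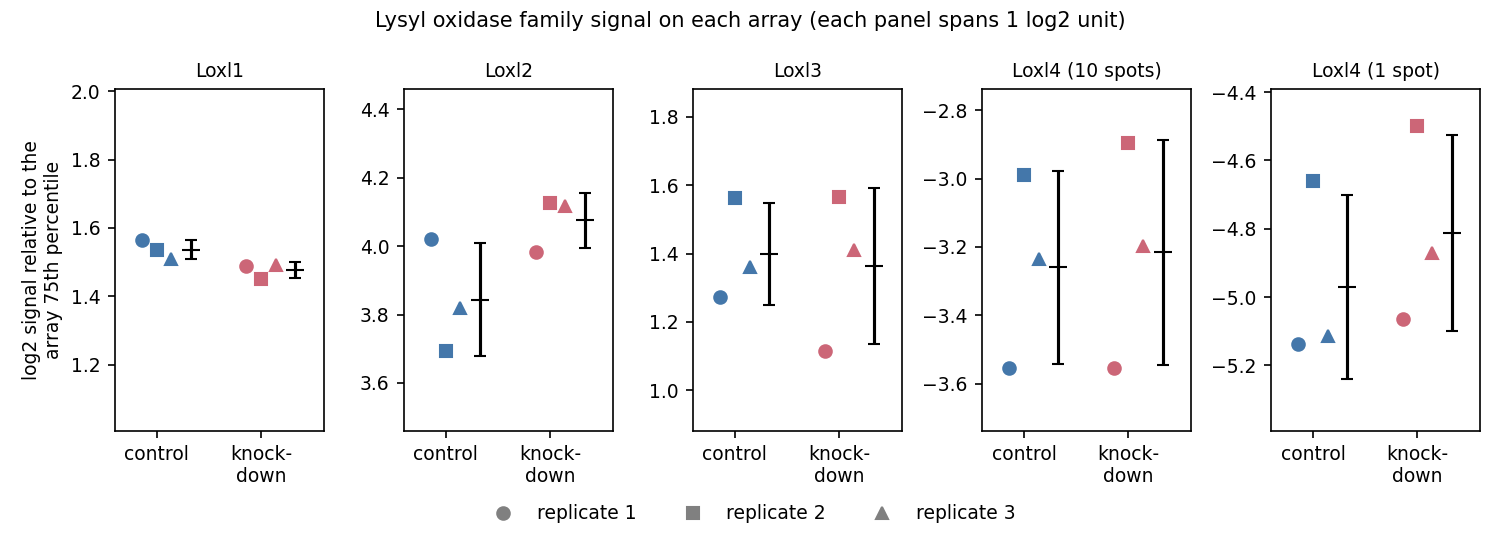
Level of each family probe (vertical axes, log2 signal relative to the array's 75th percentile, each panel spanning 1 log2 unit) in the 3 control (blue) and 3 knockdown (red) arrays; symbols give the replicate number and black bars the mean ± SD. Loxl1 values lie close together, 2 of 3 Loxl2 knockdown values lie above all controls, and the replicates of Loxl3 and Loxl4 spread widely within both groups.

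**Figure D2:**
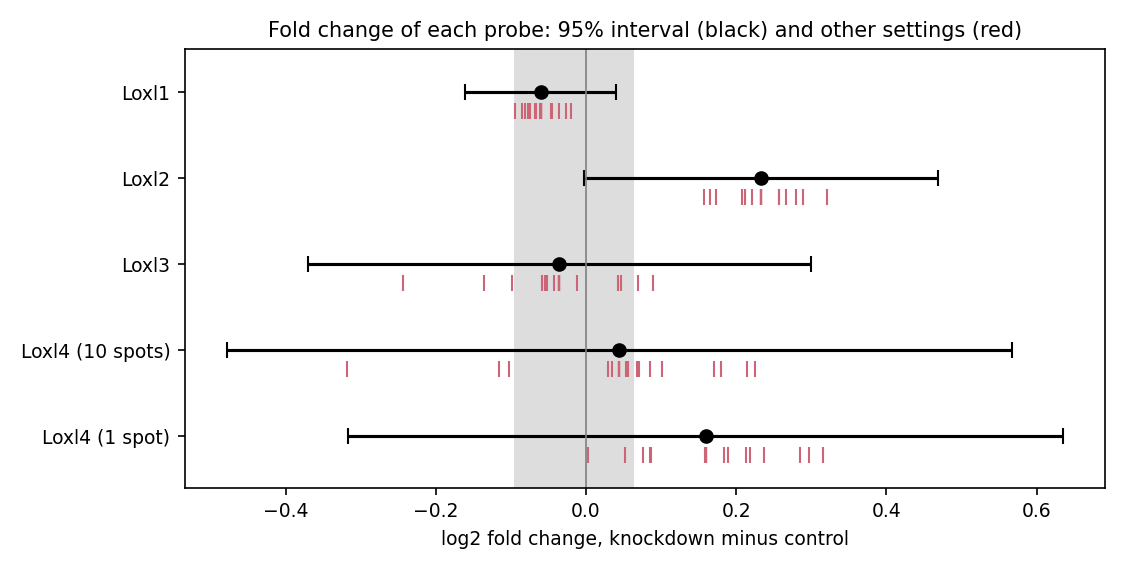
Log2 fold change, knockdown minus control, of the 5 family probes: black points and bars are the limma estimate with its 95% interval, red ticks the values under the alternative settings, and the grey band the middle 50% of all tested probes. Every interval includes 0, and the red ticks of Loxl3 and of the 10-spot Loxl4 probe lie on both sides of 0.

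Whether members moved unequally was asked with differences taken within each array over the 6 pairs of genes. Loxl1 minus Loxl2 was -2.31 ± 0.15 in control and -2.60 ± 0.095 in knockdown (SD, n = 3 each). The change of -0.29 came with groups that did not overlap, and with a two-sided exact permutation p of 0.1, the smallest that 3 against 3 can give (0.6 after Benjamini-Hochberg over the 6 pairs). This was the only pair whose groups did not overlap. The other 5 pairs had changes between -0.10 and 0.27 and exact permutation p of 0.3 to 0.9.

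Loxl3 and Loxl4 followed each other over the arrays. For Loxl3 and the 10-spot Loxl4 probe Pearson r was 0.95 (n = 6 arrays; Spearman rho = 1), given as a description. The rank order rests partly on near ties, control 2 and knockdown 2 for Loxl3 and control 1 and knockdown 1 for Loxl4. Without knockdown 1 and knockdown 2, the arrays farthest from the Loxl3 median, r was 0.95 over 4 arrays, but control 2, level with knockdown 2 for Loxl3, and control 1, level with knockdown 1 for Loxl4, stay in, so this is a weak check. The second Loxl4 probe had r = 0.84 with Loxl3 and 0.89 with the first. Of 10750 named genes, 0.614% were at least as similar to Loxl3 as Loxl4 was. The arrays with high Loxl3 and Loxl4 were control 2 and knockdown 2, and those with low values were control 1 and knockdown 1, so this variation ran across both groups. Loxl2 and Loxl1 did not share it: their r with Loxl3 was -0.16 and -0.21, and between each other -0.49. With group means taken out, Loxl1 had r = -0.53 with Loxl3, -0.69 with the 10-spot Loxl4 probe and 0.29 with Loxl2. Loxl2 then had -0.11 with Loxl3 and -0.28 with that Loxl4 probe, and Loxl3 had 0.97 with it.

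**Figure D3:**
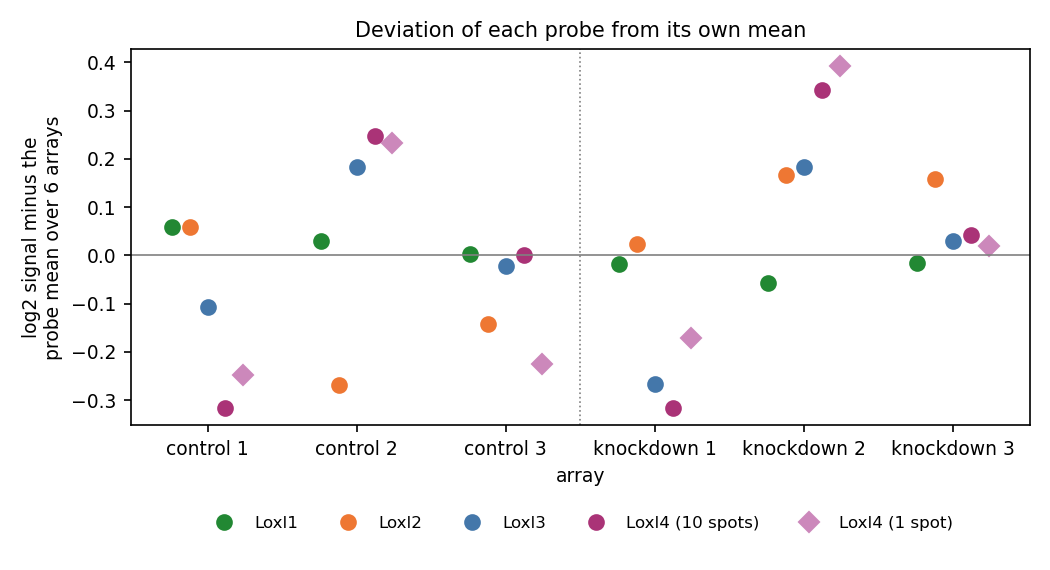
Deviation of each family probe from its own mean over the 6 arrays (vertical axis, log2 units) on each array (horizontal axis); colours are probes, and the dotted line separates control from knockdown. Loxl3 (blue) and both Loxl4 probes (purple and pink) are high on control 2 and knockdown 2 and low on control 1 and knockdown 1, while Loxl1 (green) stays within 0.1 of its mean.

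The genes with profiles most like each member are named only for likeness. For Loxl2 they were Rad51ap1 (r = 0.998), Gpr15lg (0.998) and Apool (0.998), among 5.53% of named genes with r over 0.9. For Loxl1 they were Rgs19 (r = 0.990), Rpl36 (0.989) and Limd1 (0.988), among 2.23%. Katnal1 (r = 0.998), Elf2 (0.993) and Tkt (0.990) came closest to Loxl3, and Fam241a (0.996), Cpm (0.996) and Tgfbi (0.993) to Loxl4. With 6 arrays such values are common, and all points share the same hybridisations.

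The proteins that activate or hold lysyl oxidases, and the scaffolds of elastic fibres, had a median log2 fold change of 0.13 over 15 tested genes, 11 with higher and 4 with lower means. None of them passed the adjusted test. At an unadjusted p under 0.05, on the brightest probe of each gene, 3 had higher means (5.76% of all tested probes) and 0 lower means (8.72%). Emilin1, of this list, had -0.10 ± 0.10 (SE) on that probe. Its second, dimmer probe had -0.24 ± 0.06 (SE; limma adjusted p = 0.212) and came under the unadjusted threshold. Postn, the gene of periostin, which brings BMP1 to the fibronectin matrix, had levels of 6.16, 5.95 and 6.03 in the controls and 6.17, 6.32 and 6.26 in the knockdown samples. Every knockdown value was above every control, as in 9.66% of all tested probes, with a log2 fold change of 0.20 ± 0.07 (SE; limma adjusted p = 0.307). Ltbp4, whose protein helps place fibulins on elastic fibres, had 0.30 ± 0.11 (limma adjusted p = 0.307), and Fbln5, a fibulin that brings Loxl1 to elastin, had 0.17 ± 0.09 (adjusted p = 0.452). Pcolce2, an enhancer of procollagen cleavage, had 1.28 ± 0.31 (limma adjusted p = 0.201) on a dim probe that was well above background on 4 of 6 arrays, and 0.56 with a normexp background (0.23 with quantile normalization added). Bmp1, the proteinase that matures Lox, had -0.05 ± 0.04. Efemp2, the fibulin that binds Lox, had -0.03 ± 0.06, and Fn1, the fibronectin gene, 0.01 ± 0.04, which turned to -0.04 with normexp (and -0.0087 with quantile normalization added); its second probe had -0.13 ± 0.06. The second Bmp1 probe had -0.10 ± 0.12.

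Among the substrates, 9 genes were tested, 5 with higher and 4 with lower means, and the median was 0.04. None passed, and at an unadjusted p under 0.05 there were 0 with higher and 1 with lower means (5.76% and 8.72% of all tested probes). Eln, which encodes elastin, had levels of 3.92, 3.002 and 3.42 in the controls and 3.52, 4.19 and 3.96 in the knockdown samples. Control 1 lay within the knockdown range, and the log2 fold change was 0.44 ± 0.28 (SE; limma adjusted p = 0.530), with 0.22 ± 0.28 on its second probe. It was 0.22 without control 2, 0.68 without control 1 and 0.11 within scan 2. The main fibrillar collagen genes Col1a1, Col1a2 and Col3a1 had -0.02 ± 0.06, 0.06 ± 0.07 and 0.04 ± 0.09; Col1a1 turned to 0.0068 with centring on the median. Col5a3, a chain of collagen V, had -0.31 ± 0.10 (limma adjusted p = 0.263). Col4a1, of basement membrane collagen, had 0.15 ± 0.07 (-0.0086 ± 0.13 on its second probe), and Col11a2 0.14 ± 0.08 (-0.04 ± 0.15 on its second probe). Without control 2 Col4a1 had 0.09, without knockdown 1 Col11a2 had 0.07, and without knockdown 3 Col1a2 had 0.01.

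Lysyl hydroxylases act before lysyl oxidases, on the same lysines. The list around that step also held genes of other collagen modification, such as Crtap. Of its 11 tested genes 7 had higher and 4 lower means, with a median of 0.01. None passed. On the brightest probe of each gene, 1 in each direction had an unadjusted p under 0.05 (5.76% of all tested probes with higher and 8.72% with lower means). Colgalt1, of this list, had 0.01 ± 0.06 (SE) on that probe. Its second, dimmer probe had -0.11 ± 0.04 (SE; limma adjusted p = 0.305) and came under the unadjusted threshold. Plod2, the hydroxylase of the collagen telopeptides, had levels of 5.77, 5.39 and 5.59 in the controls and 5.82, 5.86 and 5.86 in the knockdown samples. All knockdown values lay above all controls, with a log2 fold change of 0.26 ± 0.10 (SE; limma adjusted p = 0.315) that was 0.17 without control 2. All knockdown values lie above all controls in 9.66% of tested probes. Plod1 had -0.01 ± 0.08, which turned to 0.01 with centring on the median. Crtap, a subunit of the prolyl 3-hydroxylase complex, had -0.15 ± 0.04 (limma adjusted p = 0.240) and -0.34 ± 0.10 on its second probe. Fkbp10, a chaperone of the hydroxylation step, had -0.11 ± 0.10, and between -0.18 without control 2 and -0.02 without control 1.

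Copper reaches lysyl oxidases through the importer Slc31a1 and the pump Atp7a, which loads copper in the secretory pathway. Of 13 tested copper genes 4 had higher and 9 lower means, with a median of -0.03; none passed, and 2 with lower means and 0 with higher means had an unadjusted p under 0.05 (8.72% and 5.76% of all tested probes). The 2 were Slc31a1 and Atp7a. Atp7a had levels of -1.20, -1.002 and -1.12 in the controls and -1.41, -1.26 and -1.36 in the knockdown samples, without overlap, and a log2 fold change of -0.24 ± 0.07 (SE; limma adjusted p = 0.238). Knockdown lay lower without overlap in 12.5% of all tested probes. Slc31a1 had -0.61, -0.40 and -0.38 against -0.60, -0.84 and -0.88, with control 1 just under knockdown 1, and a log2 fold change of -0.31 ± 0.10 (limma adjusted p = 0.278). Cox17, a copper chaperone of mitochondria, had 0.14 ± 0.06 (limma adjusted p = 0.382), and 0.09 without knockdown 2.

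Of 4 tested genes of other amine oxidases 2 had higher and 2 lower means, with a median of -0.07. None passed, and 1 with a lower and 0 with a higher mean had an unadjusted p under 0.05 (8.72% and 5.76% of all tested probes). Aoc3, a copper amine oxidase of the cell surface, had levels of -3.65, -3.27 and -3.38 in the controls and -4.26, -4.33 and -4.32 in the knockdown samples. All knockdown values lay under all controls, as in 12.5% of all tested probes. The log2 fold change was -0.87 ± 0.10 (SE; limma adjusted p = 0.193), and -0.40 with a normexp background. The flavin enzymes Maoa and Maob of mitochondria had -0.19 ± 0.09 and 0.37 ± 0.23. Without knockdown 2 Maoa had -0.11, and without knockdown 3 Maob had 0.14.

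Genes known to induce lysyl oxidases or to act with them had a median of -0.14 over 13 tested, 3 with higher and 10 with lower means. None passed; at an unadjusted p under 0.05 there were 4 with lower means (8.72% of all tested probes) and 1 with a higher mean (5.76%). Twist1, a mesenchymal transcription factor, had levels of 0.45, 0.55 and 0.46 in the controls and 0.24, 0.26 and 0.25 in the knockdown samples, with a log2 fold change of -0.24 ± 0.04 (SE; limma adjusted p = 0.193). Snai2, of the Snail family, had 1.61, 2.04 and 1.85 against 1.33, 1.29 and 1.32, a log2 fold change of -0.52 ± 0.11 (limma adjusted p = 0.193). Tgfb1, the cytokine best known for inducing these enzymes, had -1.76, -1.65 and -1.83 against -2.06, -2.32 and -2.13, a log2 fold change of -0.42 ± 0.09 (limma adjusted p = 0.193). Their groups did not overlap, which 22.2% of all tested probes share, and these 3 were chosen for the smallest p of the list. Hif1a, of the hypoxia response, lay lower without overlap too, by a small step (-0.04 ± 0.04, and -0.02 without control 1). The receptor gene Tgfbr1 (0.18 ± 0.05, limma adjusted p = 0.220) and Ccn2, which encodes a matricellular protein, were higher without overlap. The receptor gene Tgfbr2 had a lower mean with overlapping groups (-0.20 ± 0.08, limma adjusted p = 0.34). Its second, dimmer probe had -0.45 ± 0.08 (limma adjusted p = 0.193). Tgfb3 had a higher mean with overlapping groups (0.21 ± 0.11, limma adjusted p = 0.43).

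**Figure D4:**
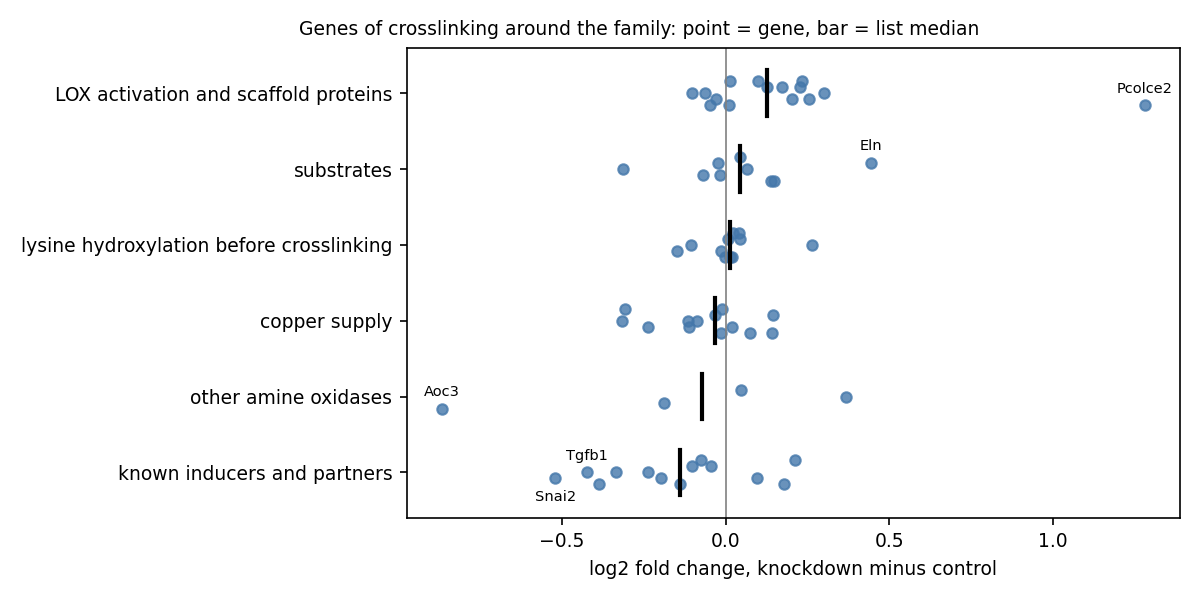
Log2 fold change, knockdown minus control (horizontal axis), of each tested gene (point) in 6 lists around the lysyl oxidases, with black bars at the list medians; genes beyond 0.4 in size are named. Medians run from -0.14 for inducers and partners to 0.13 for activation and scaffold proteins, and no point passed the adjusted limma test.

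Likeness to these 65 genes differed among the members, again as a description over 6 arrays. Loxl2 had r over 0.9 with 9 of them (5.53% of all named genes), the closest being Ltbp4 (0.985), Postn (0.983) and Plod2 (0.969). Next came Tgfb3 (0.959) and Eln (0.956), then Sco1, Pcolce2, Fbln5 and Ltbp3. Loxl2 had r under -0.9 with 6 (5.32% of all named genes): Tgfbr2 (-0.980), Tgfb2 (-0.980), Col5a3 (-0.945), Mt2A (-0.943), Snai2 (-0.937) and Slc31a1 (-0.931). Loxl3 had r over 0.9 with 3 (1.93%), Plod1 (0.948), P3h4 (0.918) and Efemp2 (0.90), and under -0.9 with 1 (2.30%), Tll2 (-0.979). Loxl4 had r over 0.9 with 0 (2.29%) and under -0.9 with 3 (2.34%), Tll2 (-0.941), Fkbp10 (-0.918) and Thbs1 (-0.915). Loxl1 had r over 0.9 with 2 (2.23%), Sod3 (0.907) and Tgfb1 (0.901), and under -0.9 with 0 (0.940%).

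Fibroblast identity was checked on 11 marker genes. Of these, 9 were well above background on all 6 arrays, among them Col1a1, Col1a2, Col3a1 and Vim. The signals of Dcn and Lum, which encode the small proteoglycans decorin and lumican, never were. Means of 7 of the 9 were lower in knockdown, 4 of them at an unadjusted limma p under 0.05 (8.72% of all tested probes) and 0 after adjustment. The log2 fold changes of Pdgfra, a growth factor receptor, and Prrx1, a transcription factor, were -0.51 ± 0.13 and -0.70 ± 0.22 (SE; limma adjusted p = 0.207 and 0.262). The summed marker signal, in multiples of the 75th percentile, was 387 to 435 in control and 405 to 418 in knockdown. Col1a1, Col1a2 and Col3a1 made up 86.1% to 88.3% of it, so the sum says little of the dimmer markers.

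Markers of other cell types were summed in the same way. For 5 leukocyte genes the sums were 0.0727 to 0.0995 in control and 0.0763 to 0.0922 in knockdown, and for 5 endothelial genes 0.179 to 0.224 and 0.188 to 0.225. For 5 keratinocyte genes they were 2.41 to 2.66 and 2.62 to 2.67. For 7 mural and smooth muscle genes the sums were 7.17 to 8.05 and 7.69 to 8.83, and for 5 skeletal muscle genes 1.19 to 1.37 and 1.33 to 1.45. Control and knockdown ranges overlapped in each of these lists. 1 gene carried most of each sum, Tp63 for keratinocytes, Cdh5 for endothelium, Cspg4 for mural cells, Acta1 for muscle and Cd68 for leukocytes. The summed Tp63 probe had a log2 fold change of 0.05 ± 0.05 (SE). A second, dimmer Tp63 probe outside the sum had -0.57 ± 0.06 (SE, limma adjusted p = 0.188).

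Single markers were mixed within the lists. Well above background on all 6 arrays were Cd68 of the leukocyte list (1 of 5), Cdh5 and Kdr of endothelium (2 of 5), and Krt5, Krt14 and Tp63 of keratinocytes (3 of 5). So were 6 of 7 mural genes (Abcc9, Kcnj8, Des, Myh11, Notch3 and Cspg4) and 4 of 5 muscle genes (Myog, Ckm, Myh3 and Acta1). Not well above background on a single array were Ptprc, Cd3e and Itgam, Pecam1 and Cldn5, Krt1 and Cdh1, Rgs5, Myod1, and the fat cell genes Adipoq and Fabp4. In the mural list 3 of 6 tested genes had a lower mean at an unadjusted limma p under 0.05 (8.72% of all tested probes) and 1 a higher mean (5.76%). Abcc9 and Kcnj8, which encode potassium channel subunits, had log2 fold changes of -1.14 ± 0.10 and -1.32 ± 0.33 (SE; limma adjusted p = 0.188 and 0.207). Des had -0.20 ± 0.08 and Notch3 -0.08 ± 0.15. Myh11, of smooth muscle myosin, had 0.55 ± 0.15 (limma adjusted p = 0.221) without overlap, and 0.18 ± 0.06 on a second probe. Knockdown lay higher without overlap in 9.66% of all tested probes. Cspg4 had 0.15 ± 0.08. Of the muscle genes Myh3, an embryonic myosin, had 0.89 ± 0.16 (limma adjusted p = 0.193) and 0.46 ± 0.72 on a second probe. The part of these markers in the values above was not tested. In such samples a smaller share of a cell type and less RNA per cell cannot be told apart.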

How the data were processed

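RNA of 6 samples, grouped and numbered by their titles, was read on 6 Cy3 arrays. The authors deposited each array's scanner table, whose linear spot intensity is used here. Agilent Feature Extraction had subtracted background from it and removed spatial trends, as the deposited column names show. The software version is 11.0.1.1 in the file headers and 11.0.0.1 in the submitters' processing notes.

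Control spots and 386 to 513 outlier gene spots per array were left out; no gene spot was saturated. Here log2 intensity minus the array's 75th percentile (1494 to 1612 units) was averaged over the spots of a probe. Between 20901 and 22492 probes per array were well above background. The number of arrays limits the precision. Accessions, without version, were named with a GRCr8 RefSeq table (18005 of 30367 probes). A gene's brightest probe stood for it in the lists. limma 3.58.1 (R 4.3.3; lmFit, eBayes) compared the groups over all 20776 tested probes, of which 7 lacked a value on an array. The step was tested on simulated data. A further marker list is not reported here. Named genes were all family probes, the 3 smallest p per list, a set of core genes and the 3 most similar genes per member. The members, the lists and this rule were chosen with earlier results of these data known. Single marker genes, Tgfbr1, Tgfbr2, Ccn2, Emilin1, Colgalt1 and the list genes named for likeness were named after their values were seen. Alternatives covered scaling, normexp (offset 50, on the median signal), filters, variance model, array weights, scan and replicate blocks, and leaving out each array.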

Additional observations from a re-analysis of the deposited data

How the results depend on the processing

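Over all alternatives 0 family probes passed the adjusted limma test, except 1 (Loxl2, log2 fold change 0.29) with array quality weights; over all probes 9234 were called with those weights, 1 with centring on the median and 0 with the others. Loxl1 kept its sign throughout (-0.095 to -0.019), as did Loxl2 (0.16 to 0.32) and the second Loxl4 probe (0.0033 to 0.32). Loxl3 turned to 0.043 with array weights and 0.069 within scan 1; leaving out 1 array gave -0.14 to 0.089. The 10-spot Loxl4 probe turned to -0.32 within scan 2 (control 3 and knockdown 1, no test) and was 0.23 within scan 1; leaving out 1 array gave -0.12 to 0.21. The cause of these turns was not tested. Within scans 1 and 2 Loxl1 had -0.081 and -0.019, Loxl2 0.27 and 0.16, and Loxl3 0.069 and -0.24. By identifiers in the headers, scan 1 held 2 arrays of each group and scan 2 held 1 of each, and a block on scan gave adjusted p of 0.544 (Loxl1), 0.349 (Loxl2), 0.911 (Loxl3) and 0.941 (Loxl4).

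Samples of the same replicate number did not deviate together in every pair (r = 0.10, 0.25 and -0.27). So few values cannot decide whether the numbers pair the samples. With a block on replicate number the SE of the log2 fold change fell from 0.136 to 0.064 for Loxl3. It fell from 0.212 to 0.049 for Loxl4 probe A_42_P463602 and from 0.193 to 0.057 for Loxl4 probe A_64_P029118. For Loxl1 and Loxl2 the SE rose, from 0.041 to 0.048 and from 0.096 to 0.111. With the replicate block 0 probes passed, 947 probes with a higher and 1713 with a lower knockdown mean had an unadjusted p below 0.05, and the adjusted p was 0.653 for Loxl1, 0.467 for Loxl2, 0.866 for Loxl3 and 0.760 for Loxl4; it changed no call.

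Of the other genes, near-zero values turned sign: with normexp Fn1 had -0.039 (-0.0087 with quantile scaling added); with centring on the median Col1a1 had 0.0068 and Plod1 0.011; with array weights Efemp2 had 0.021, Col1a1 0.030 and Plod1 0.028; within scan 1 Fn1 had -0.0088, Col3a1 -0.0018 and Plod1 0.050; within scan 2 Bmp1 had 0.021, Col1a1 0.059, Fkbp10 0.040, Maoa 0.0028 and Maob -0.035. Leaving out 1 array gave -0.00037 to 0.032 for Fn1, -0.062 to 0.0066 for Efemp2, -0.063 to 0.023 for Col1a1, -0.0092 to 0.15 for Col3a1, -0.084 to 0.065 for Plod1. The copper list's median was -0.0077 with centring on the median and -0.045 to 0.0018 on leaving out 1 array; that of inducers and partners was -0.077 with normexp and -0.25 to -0.096 on leaving out 1 array. Within scan 2 the change of Loxl1 minus Loxl3 was 0.22, of Loxl1 minus Loxl4 0.30 and of Loxl3 minus Loxl4 0.074; leaving out 1 array gave -0.16 to 0.089 for Loxl1 minus Loxl3, -0.28 to 0.069 for Loxl1 minus Loxl4, -0.022 to 0.42 for Loxl2 minus Loxl4, -0.13 to 0.0047 for Loxl3 minus Loxl4. Signal over background limits dim probes such as that of Pcolce2, well above background on 4 of 6 arrays.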
